A study of Mus musculus with 7 samples.

Results

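Pou5f1 (Oct4), Sox2, Klf4 and Myc, the reprogramming factors abbreviated OSKM, were followed exon by exon in RNA-seq of 7 mouse cell populations. All exon rows of these 4 genes were taken, which gave 37 of the 279252 rows: 12 of Pou5f1, 1 of Sox2, 9 of Klf4 and 15 of Myc. Several rows describe the same bases, so the 37 rows cover 33 distinct stretches, of which 12 are wholly coding, 16 hold coding and untranslated bases, and 5 are wholly untranslated.

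The study followed fibroblasts on their way to neural stem cells (NSC), with 1 library for each population. Mouse embryonic fibroblasts (MEF) were of strain A12 with the genotype Mbd3 flox/-. The day 6 cells were B6/129 fibroblasts with a Nanog-CreER reporter, a Rosa26-TdTomato allele from a B6 mother and a Col1a-OSKM allele from a 129 father. They received doxycycline (Dox) and 4-hydroxytamoxifen (4OHT) from day 1 to day 6, were grown without feeders, and were sorted as tdTomato positive. In this reporter, Nanog-driven Cre marks cells that have had the Nanog locus active. Tomato-positive and Tomato-negative OSKM NSC carried the same B6/129 background and transgenes. They were subcloned mechanically and kept free of feeders, and whether Dox was present at harvest is not given in the sources used here. Brain NSC came from BDF2 embryos, dated E12.5 in the sample description and E13.5 in the growth protocol. Induced pluripotent stem cells (iPSC) were again A12 Mbd3 flox/-, with a note on MEF feeders that carries question marks. Embryonic stem cells (ESC) were line v6.5 on MEF feeders. The labels list a transgene for the day 6 cells and the OSKM NSC and none for MEF or iPSC. Strain and population cannot be told apart, and a difference between 2 libraries has no replicate check, so no p-value is given and each 95% interval covers counting error only.

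Oct4, a POU-domain factor, and Sox2, an HMG-box factor, bind next to each other on enhancers of pluripotent cells, and Sox2 also maintains neural stem cells. Klf4 is a zinc-finger factor of the epithelium and of naive pluripotent cells, and Myc is a basic helix-loop-helix factor that pairs with Max on genes of growth. A factor transgene is commonly built from the coding sequence alone, so the exon ends upstream of the start codon and downstream of the stop codon come mainly from the cell's own gene. The sequence of the Col1a-OSKM cassette is not given in the sources used here.

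The coding ends of Klf4 and Myc are shown because the results turn on which exon rows lie outside them. Capitals mark the ATG or CTG that opens translation or the stop codon, and each run is 30 bases of the GENCODE M21 transcript, 5′ to 3′ (mm10).
Klf4 start: tgggcccccacattaATGaggcagccacct
Klf4 end: aagaggcactttTAAatcccacgtagtgga
Myc start at ATG: ccgacagccacgacgATGcccctcaacgtg
Myc last 30 bases of exon 1: CTGgatttcctttgggcgttggaaaccccg
Myc end: aactctggtgcaTAAactgacctaactcga
Pou5f1 start: gtgcccaccttccccATGgctggacacctg
Klf4 lies on the minus strand of chromosome 4 (55527143 to 55532466). Its first run crosses the junction of exons 1 and 2: of the 600 bases of exon 1, 5 are coding, while exons 2, 3 and 4 are coding throughout. The stop codon lies in exon 5 (chr4:55528110-55528139 for the run), where 176 of 1158 bases are coding. Myc lies on the plus strand of chromosome 15 (61985391 to 61990374). The ATG opens in exon 2, and an annotated CTG start adds 30 coding bases at the very end of exon 1 (chr15:61985922-61985951), which has 561 bases in all. The Myc stop codon lies in exon 3 (chr15:61989894-61989923 for the run), where 563 of 1029 bases are coding. Pou5f1 lies on the plus strand of chromosome 17 (35506018 to 35510772), and its first run (chr17:35506085-35506114) sits inside exon 1, 384 of whose 466 bases are coding. Sox2, on the plus strand of chromosome 3 (34650405 to 34652461), has a single exon, 960 of whose 2057 annotated bases are coding. Its 1 row therefore cannot be divided into coding and untranslated parts.

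Gene by gene, each factor had its own order of levels, on the scale of RPKM (reads per kilobase of exon and megaread of depth) averaged over its exon rows by length. This mean takes in every row of a gene, so bases in overlapping rows count more than once. It also includes the rows inside intron 1 of Pou5f1 and Myc that are described below. Pou5f1 reached 2067 in iPSC, 1410 in ESC and 886 in the day 6 cells, whereas MEF had 1.09 and the NSC had 3.13 (Tomato-positive OSKM), 1.32 (Tomato-negative OSKM) and 1.55 (brain). The day 6 cells stood nearest to the pluripotent cells, and MEF and all 3 NSC libraries lay at 3.13 or below. Sox2 was likewise highest in iPSC, at 252, followed by brain NSC at 201, ESC at 183, the Tomato-negative and Tomato-positive OSKM NSC at 120 and 116, the day 6 cells at 65.4 and MEF at 2.92. Every population other than MEF had Sox2 at 65.4 RPKM or more, and the OSKM NSC libraries were close to each other, at a ratio of 0.966 (0.935 to 0.997) for Tomato-positive over Tomato-negative.

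Klf4 followed the order iPSC (143), day 6 (82.7), ESC (75.2), MEF (15.1), brain NSC (7.90), Tomato-negative OSKM NSC (4.97) and Tomato-positive OSKM NSC (3.52). The 3 NSC libraries were lowest, and both OSKM NSC libraries were below brain NSC. Myc was ordered differently, with 179 in the day 6 cells, 90.5 (Tomato-positive) and 68.5 (Tomato-negative) in the OSKM NSC, 42.3 in those of brain, 21.1 in MEF, 11.3 in iPSC and 1.22 in ESC. It was the one factor that was highest on day 6 and lowest in the pluripotent lines.

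**Figure D1:**
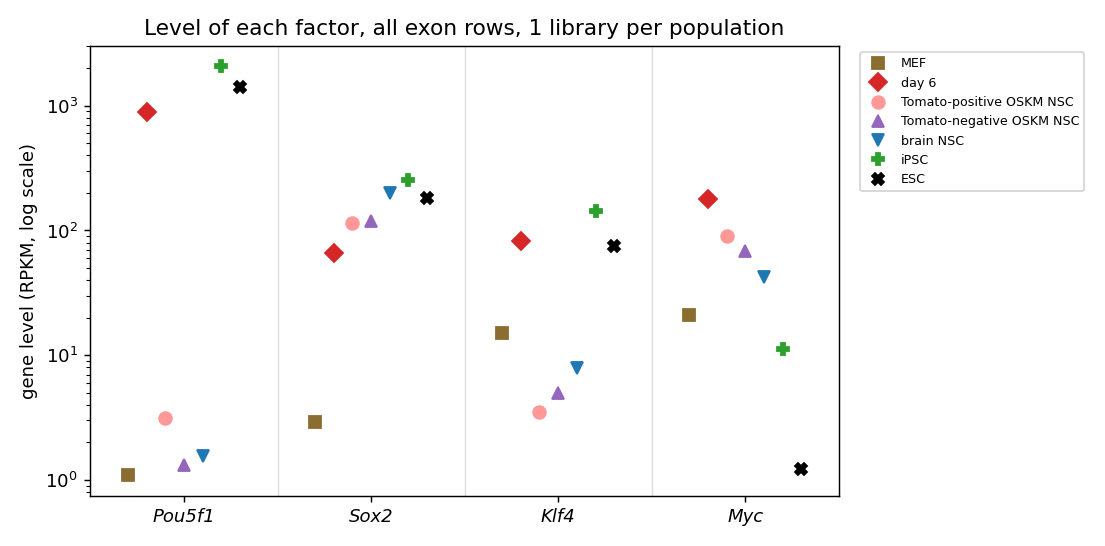
Gene level of each factor in RPKM (log axis), 1 point per library and 7 libraries per gene. The red day 6 point lies between ESC and iPSC for Klf4, below both for Pou5f1 at 886 and Sox2 at 65.4, and above all others for Myc at 179.

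From MEF to day 6 all 4 factors were at least 4-fold higher on the scale log2((a + 1)/(b + 1)), a call met by 8.23% of genes (4-fold lower: 16.1%). The log2 differences were 8.73 for Pou5f1, 4.08 for Sox2, 3.03 for Myc and 2.38 for Klf4. Against iPSC, Myc was 3.88 higher on the log2 scale, past 4-fold like 6.53% of genes. Sox2 was lower by 1.93, Pou5f1 by 1.22 and Klf4 by 0.78 there, none of them past 4-fold (9.83% of genes). Against ESC, Myc was 6.34 higher (4.6% of genes past 4-fold). Sox2 at -1.47, Pou5f1 at -0.67 and Klf4 at 0.14 stayed inside 4-fold (12.6% of genes lower). With wholly coding rows only, which leaves out the intron rows, Klf4 was at 1.63 and Pou5f1 at -0.33 against ESC, also inside 4-fold. Against iPSC these rows gave -0.75 for Pou5f1 and -0.26 for Klf4. Myc was also 2.47 higher in iPSC than in ESC, where 1.29% of genes were 4-fold higher and 4.39% lower. No factor passed 4-fold between OSKM NSC and brain NSC (Pou5f1 was under the floor of 2 RPKM in the Tomato-negative pair), where 6.99% of genes were higher and 2.97% lower in Tomato-positive cells, and 3.1% higher and 1.57% lower in Tomato-negative cells. The log2 differences were 1.08 for Myc, -0.98 for Klf4 and -0.79 for Sox2 in Tomato-positive cells, and 0.68, -0.58 and -0.74 in Tomato-negative cells.

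Markers of the labelled cell types were read beside these levels. The summed RPKM of 4 fibroblast markers (Col1a1, Col1a2, Col3a1, Thy1) was 24819 in MEF, 2541 in the feeder-grown ESC and 1193 in the Tomato-positive OSKM NSC, and it was 80.7 (day 6), 78.8 (Tomato-negative OSKM NSC), 64.6 (iPSC) and 2.38 (brain NSC) in the others. The 3 myeloid markers Lyz2, Tyrobp and Cd68 summed to 2889 in MEF, against 6.98 to 162 elsewhere. The 3 neural stem cell markers Nes, Olig2 and Fabp7 summed to 2859 to 9687 in the NSC libraries and to 5.97 to 42.5 in the others. Fabp7 made up most of the NSC sums, at 8761 (Tomato-negative), 6511 (Tomato-positive) and 2394 (brain). In the same order Nes was at 451, 225 and 123, and Olig2 at 474, 262 and 342. The pluripotent markers Nanog, Zfp42 and Dppa5a summed to 4256 in iPSC and 6936 in ESC, to 89.1 on day 6 and to 1.88 to 6.46 in the rest, with Zfp42 at 0 in both OSKM NSC libraries. Dppa5a made up most of the iPSC and ESC sums, at 2867 and 5932, while Zfp42 was at 617 and 238 and Nanog at 772 and 765. The epithelial markers Epcam, Cdh1 and Krt8 summed to 1199 on day 6, 574 in ESC, 208 in iPSC and 0.265 to 64.0 elsewhere. Cdh1 was higher in ESC than on day 6, at 391 and 275. Epcam, at 181 and 559, and Krt8, at 2.62 and 365, went the other way. Krt8 made up 57.8 of the 64.0 in Tomato-positive OSKM NSC. The part of all these markers in the differences of the 4 factors was not tested, and fewer cells of a type and less RNA per cell cannot be told apart in bulk RNA. Depth, read from the steps of the values, was 19 to 58 megareads per library.

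Klf4 showed the widest divergence between exons. Exon 1, the 5′ untranslated exon apart from its last 5 bases, was at 50.6 RPKM in iPSC (1762 reads), 29.8 in ESC (734 reads), 5.15 in MEF (139 reads) and 4.01 in brain NSC (65 reads). It was at 2.74 in the Tomato-negative OSKM NSC (69 reads), 1.58 in the Tomato-positive ones (18 reads) and 1.41 in the day 6 cells (39 reads). The day 6 value was the lowest of the 7 libraries, close to that of the Tomato-positive OSKM NSC. Exon 3, which codes for most of the protein, was at 182 RPKM in the day 6 cells (8236 reads), 158 in iPSC (9019 reads), 38.1 in ESC (1537 reads) and 12.6 in MEF (559 reads), with 4.93 in brain NSC and 4.01 and 3.26 in the Tomato-negative and Tomato-positive OSKM NSC. Here the day 6 cells were the highest of the 7.

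From MEF to day 6, exon 1 of Klf4 was at a ratio of 0.274 (0.187 to 0.394), and the following exons were at 1.85 (1.49 to 2.30), 14.4 (13.2 to 15.7), 8.30 (7.37 to 9.38) and 2.41 (2.26 to 2.57). The 2 middle exons, 3 and 4, thus had the largest ratios in read density, exon 5 with its long 3′ untranslated end a smaller one, and exon 1 was lower on day 6 than in the fibroblasts. Set against iPSC, the same exons were at 0.028 (0.020 to 0.038), 0.147 (0.128 to 0.167), 1.15 (1.12 to 1.19), 1.09 (1.03 to 1.15) and 0.381 (0.366 to 0.396). A gene-level value of 82.7 RPKM on day 6 therefore joins exons 3 and 4 at iPSC level with a nearly empty exon 1, whose ratio to ESC was 0.047 (0.033 to 0.065). These 3 comparisons share the day 6 library.

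**Figure D2:**
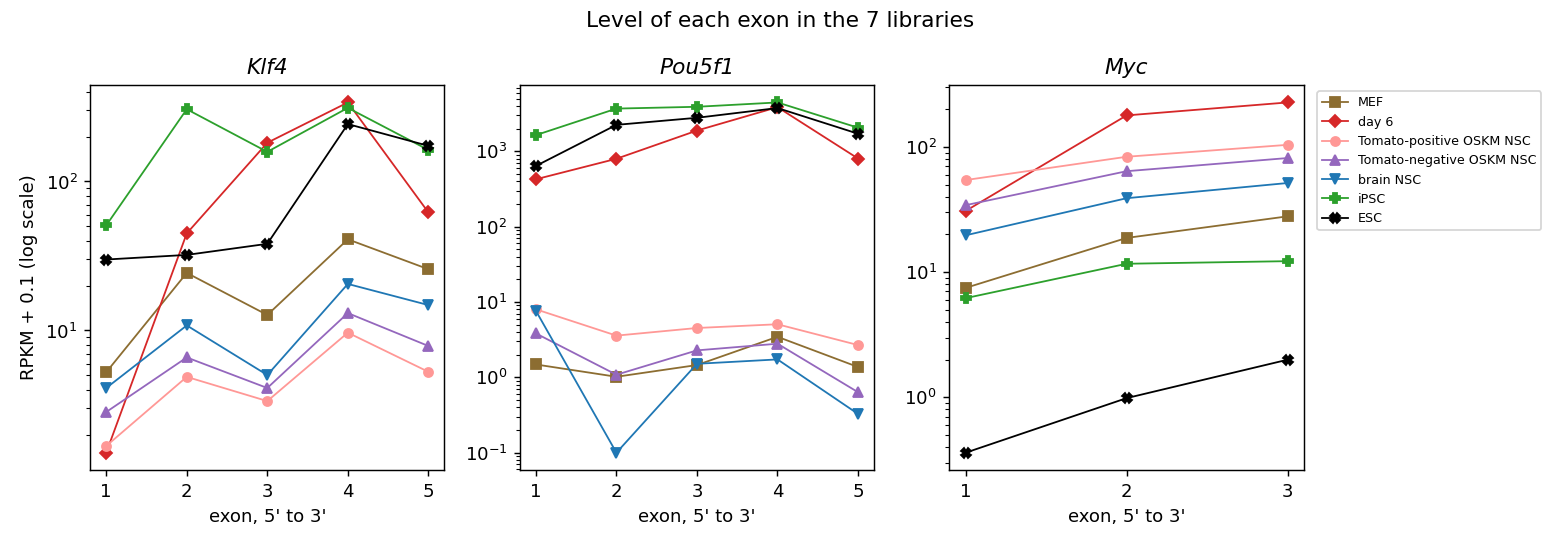
RPKM + 0.1 (log axis) of each numbered exon of Klf4, Pou5f1 and Myc, 1 line per library. On day 6, Klf4 climbs from 1.41 RPKM in exon 1 to 339 in exon 4, while Pou5f1 and Myc keep a shape closer to that of other libraries in which they are expressed.

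Exon 1 made up 19.9% (17.0 to 23.1) of the reads of Klf4 exons 1 and 3 in MEF, 32.3% (30.4 to 34.3) in ESC and 16.3% (15.7 to 17.1) in iPSC, but 0.471% (0.335 to 0.644) on day 6, or 39 of 8275 reads (Clopper-Pearson). Relative to exon 3, exon 1 was 52.5-fold lower on day 6 than in MEF (36.1 to 77.7), 41.3-fold lower than in iPSC (30.01 to 58.3) and 101-fold lower than in ESC (72.6 to 144). The ESC figure rests on an exon 3 that was itself low in that library, at 38.1 RPKM beside 243 in exon 4. In the OSKM NSC the share was 22.8% (14.1 to 33.6) in Tomato-positive and 29.4% (23.6 to 35.6) in Tomato-negative cells, with 33.2% (26.6 to 40.2) in brain NSC, and these 3 intervals overlap.

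To set Klf4 exon 1 beside other genes, each row was compared with the wholly coding rows of its gene, and that ratio was compared between libraries. For Klf4 exon 1 the log2 difference was -5.16 from MEF to day 6, -4.80 against iPSC and -5.95 against ESC. Of all rows tested, 3.65%, 3.35% and 3.15% were at least 4-fold lower in those comparisons. Among first rows that are mainly untranslated, the kind that Klf4 exon 1 is, the shares were 5.25%, 6.97% and 4.71%, and among those within 5 percentage points of its GC content (62.2%) they were 6.01%, 7.21% and 4.76%. A first row as low as Klf4 exon 1 was found 30 times among 5939 in the MEF comparison (0.505%, Klf4 included), 54 times among 5952 for iPSC (0.907%) and 25 times among 5844 for ESC (0.428%). The median of all mainly untranslated first rows tested was 0.38, 0.01 and 0.74 in the same comparisons. Among those matched in GC content it was 0.10, -0.18 and 0.50. Between OSKM NSC and brain NSC, Klf4 exon 1 differed by -0.58 in Tomato-positive and -0.14 in Tomato-negative cells, where 2.15% and 0.838% of such first rows were 4-fold lower.

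**Figure D3:**
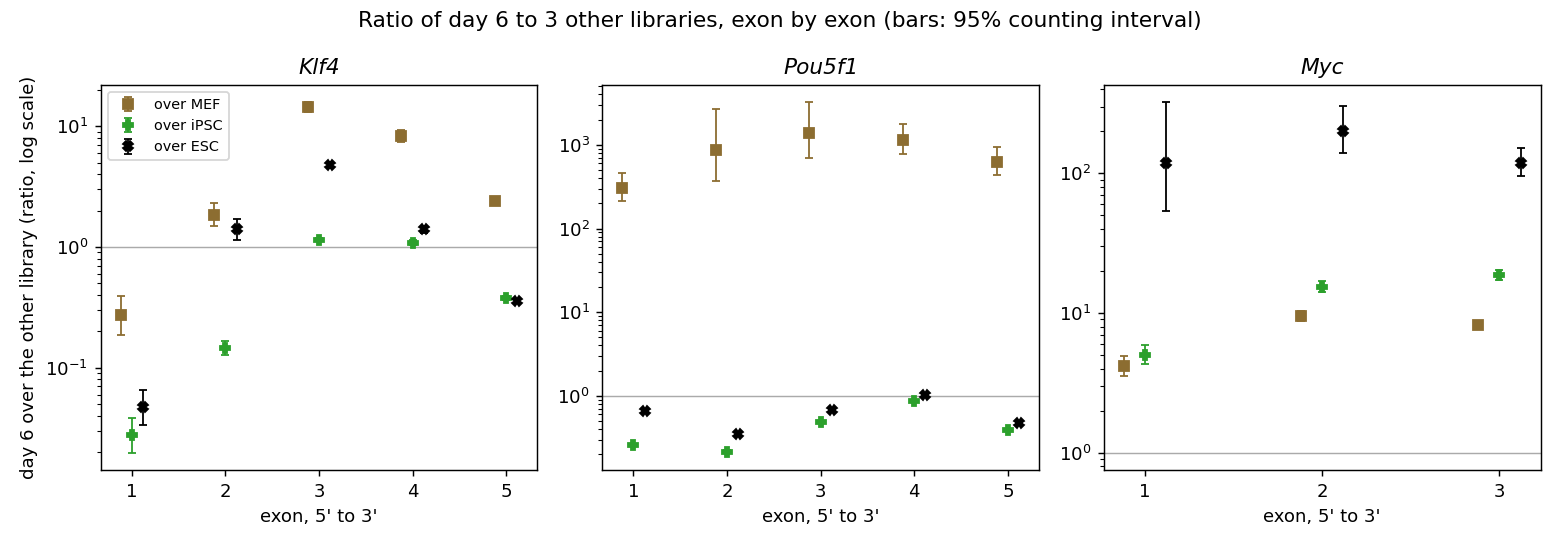
Ratio of day 6 to MEF, iPSC and ESC (log axis) for each numbered exon of Klf4, Pou5f1 and Myc, with 95% counting intervals as bars and a line at 1. In Klf4 the ratios to MEF run from 0.274 in exon 1 to 14.4 in exon 3, and in Pou5f1 the ratios to ESC run from 0.355 in exon 2 to 1.03 in exon 4.

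Exon 2 of Klf4, 121 coding bases with a GC content of 66.9%, lay between exons 1 and 3 in its change. It was at 305 RPKM in iPSC, 44.7 in the day 6 cells, 32.1 in ESC, 24.2 in MEF and 10.7 in brain NSC, and at 6.49 and 4.78 in the Tomato-negative and Tomato-positive OSKM NSC. From MEF to day 6 its log2 difference against the other coding rows was -2.62, and it was -2.64 against iPSC and -1.20 against ESC. Exon 5 was also lower against the coding rows, at -2.10 from MEF, -1.13 against iPSC and -3.13 against ESC. Exons 1, 2 and 5 were thus past 4-fold lower from MEF, where 3.65% of all rows were. Against iPSC this held for exons 1 and 2 (3.35% of all rows), and against ESC for exons 1 and 5 (3.15%). The coding rows used as reference include overlapping rows of exon 3, whose bases count more than once. Exon 3 had the largest ratio of day 6 to MEF among the exons, so these differences depend in part on it.

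Rows that share an end divide exon 3 of Klf4 into 3 coding stretches. The first 272 bases held 832 reads in the day 6 cells, 2512 in iPSC, 203 in ESC and 107 in MEF. The next 109 bases (chr4:55530603-55530711) held 435 reads in the day 6 cells, 775 in iPSC, 5 in ESC and 31 in MEF, a density of 123 RPKM in iPSC and 1.12 in ESC. The last 604 bases held 6969, 5732, 1329 and 421 reads in the same order of libraries. The ESC library, although it had 243 RPKM in exon 4 and 173 in exon 5, was nearly empty in the second of these stretches.

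The exon ratios of Klf4 between iPSC and ESC were 1.70 (1.56 to 1.85) in exon 1, 9.52 (8.10 to 11.3) in exon 2, 4.15 (3.93 to 4.38) in exon 3, 1.29 (1.21 to 1.37) in exon 4 and 0.939 (0.912 to 0.966) in exon 5. Exons 2 and 3, with GC contents of 66.9% and 64.9%, stood apart from exons 4 and 5, with 56.4% and 40.4%, and from exon 1, which has 62.2%. Relative to the coding rows of their genes, 2.96% of all rows were 4-fold higher in iPSC than in ESC, and Klf4 exon 2, at a log2 difference of 1.44, was not among them. Exon 4, whose other coding rows are those of exons 2 and 3, was past 4-fold lower at -2.14. Exon 5 was just inside 4-fold at -2.00. The share of all rows that were 4-fold lower is not given for this comparison. The gene-level difference of Klf4 between iPSC and ESC, 0.92 on the log2 scale, averages over these exons. The part of GC content in this pattern was not tested.

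Myc was divided by nested rows, since rows of exons 1 and 3 share one end and differ in length. The last 307 bases of exon 3 (chr15:61990068-61990374), all of them downstream of the stop codon, held 5 reads in the day 6 cells, 33 in MEF, 25 in iPSC and 2 in ESC, while the NSC had 102 (Tomato-negative OSKM), 83 (Tomato-positive OSKM) and 48 (brain). Apart from 1 read of MEF, all of these reads fell in the first 186 of the 307 bases. The first 722 bases of the same exon, which hold the coding part, had 10689 reads in the day 6 cells, 1252 in MEF, 698 in iPSC and 78 in ESC, and the NSC had 3409, 1942 and 1377 in the order just given. The day 6 cells had the most reads of any library in the coding side of the exon and fewer in its tail than every library except ESC.

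As a share of exon 3 reads, the tail held 2.57% (1.77 to 3.59) in MEF, 3.46% (2.25 to 5.06) in iPSC and 2.50% (0.304 to 8.74) in ESC. Among the NSC it held 4.10% (3.28 to 5.06) in Tomato-positive, 2.91% (2.37 to 3.52) in Tomato-negative and 3.37% (2.49 to 4.44) in brain cells. On day 6 it held 0.0468% (0.0152 to 0.109). Relative to the first 722 bases, the tail was 56.3-fold lower on day 6 than in MEF (21.8 to 185), 76.6-fold lower than in iPSC (28.6 to 257) and 54.8-fold lower than in ESC (5.13 to 340). In RPKM the tail itself was at 2.39 in MEF and 0.354 on day 6, a ratio of 0.148 (0.045 to 0.382), while exon 2 was at a ratio of 9.56 (8.81 to 10.4) and exon 3 as a whole at 8.14 (7.68 to 8.63).

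**Figure D4:**
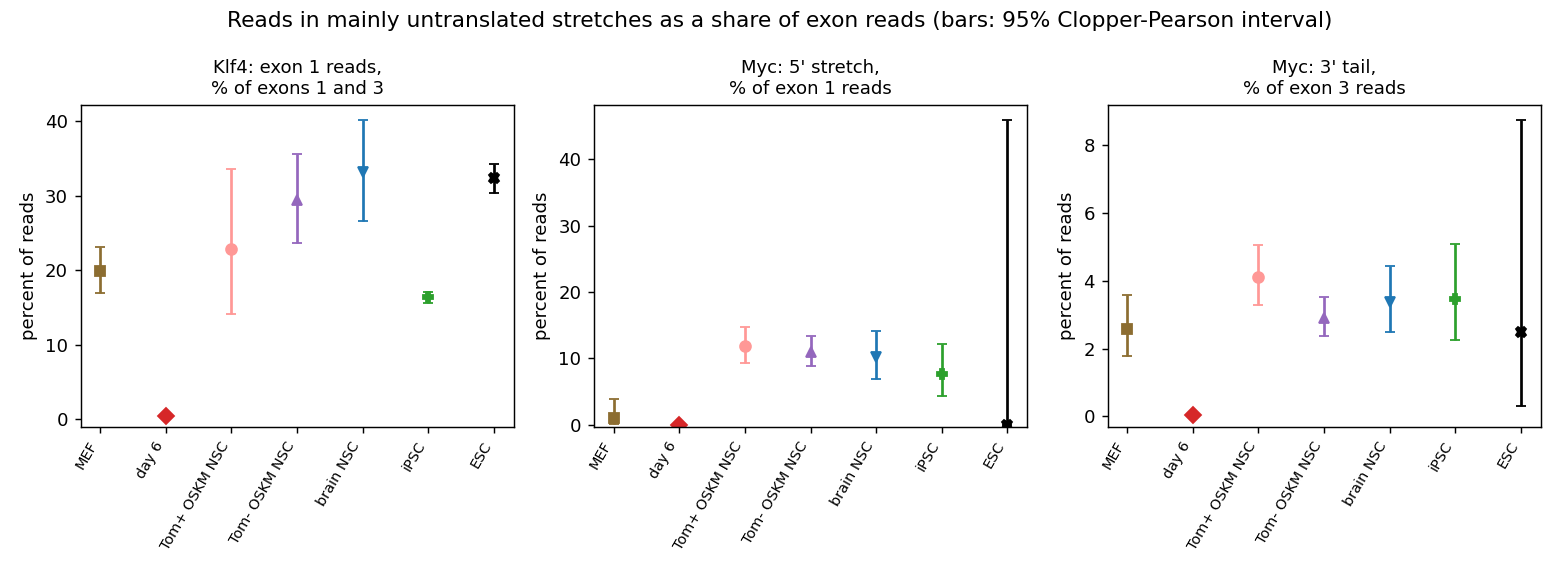
Share of reads, in percent, that fell in Klf4 exon 1 (of exons 1 and 3), in the first 231 bases of Myc exon 1 (of exon 1) and in the last 307 bases of Myc exon 3 (of exon 3), per library with 95% Clopper-Pearson intervals (Tom+ and Tom- stand for Tomato-positive and Tomato-negative). The day 6 point lies at 0.471%, 0% and 0.0468%, and the wide ESC bars for Myc rest on 6 and 80 reads.

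With 0.5 reads added to each count, the tail of Myc differed from the rest of its exon by a log2 of -5.70 between MEF and day 6 and -6.15 between iPSC and day 6. Of genes whose last exon could be divided in this way, 3.71% and 4.17% had a tail at least 4-fold lower on day 6. A tail as low as that of Myc was found in 2 of 1563 genes in the MEF comparison and 4 of 1608 in the iPSC comparison, Myc included. Against ESC the value was -5.95 (4.56% of genes 4-fold lower), but the 2 ESC reads are under the minimum of 20 set for the count. The day 6 tail was also lower than in the NSC, with a log2 difference of -6.38 against Tomato-positive (2.67% of genes), -5.87 against Tomato-negative (4.53%) and -6.10 against brain cells (4.44%). Between OSKM NSC and brain NSC the Myc tail differed by 0.29 in Tomato-positive and -0.23 in Tomato-negative cells, and 0.202% and 0.169% of genes were 4-fold higher and 1.15% and 0.169% lower there.

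The 5′ end of Myc was also empty on day 6, and it was nearly so in MEF. The first 231 bases of exon 1 held no read in the day 6 cells and in ESC, 2 in MEF, 15 in iPSC, 30 in brain NSC, and 88 and 68 in the Tomato-negative and Tomato-positive OSKM NSC. The remaining 330 bases held 790, 6, 184, 183, 266, 715 and 509 reads in the same order. A count of 0 allows up to 3 reads, or 0.282 RPKM on day 6. The stretch was 1.08% (0.131 to 3.83) of exon 1 reads in MEF and 0% (up to 0.466) on day 6, against 11.8%, 11.0% and 10.1% in the Tomato-positive, Tomato-negative and brain NSC and 7.58% in iPSC. MEF and day 6 were thus both low, with overlapping intervals. Among genes with such a 5′ stretch, 20.2% were 4-fold lower on day 6 than in MEF and 22.4% than in iPSC, but Myc itself had too few reads to be among those tested. Against the NSC, where Myc was tested, the log2 difference with 0.5 reads added was -7.73 (Tomato-positive), -7.61 (Tomato-negative) and -7.50 (brain), values that depend on the added 0.5 since day 6 had no read. In these comparisons 15.5%, 18.3% and 14.9% of genes were 4-fold lower, and Myc was the lowest of 97, 142 and 101 genes.

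Upstream of exon 2, the 85 bases that a longer form of the exon adds (chr15:61987422-61987506) held 1 read in the day 6 cells, 12 in MEF, 6 in iPSC and 2 in ESC, and 38, 10 and 23 in the Tomato-negative, Tomato-positive and brain NSC. This was 1.82% (0.944 to 3.16) of the longer row in MEF and 0.0158% (0.0004 to 0.0881) on day 6. Exon 2 itself, the N-terminal coding exon, held 6322, 647, 517, 28, 2067, 1220 and 808 reads in the same order of libraries.

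A row inside intron 1 of Myc (chr15:61987034-61987303) carried 770 reads in the day 6 cells, 76 in MEF, 61 in iPSC and none in ESC, and 285, 196 and 101 in the 3 NSC libraries (Tomato-negative, Tomato-positive, brain). Exon 1, which does not overlap this row, held 790 reads in the day 6 cells, 186 in MEF, 198 in iPSC and 803, 577 and 296 in the same NSC, so on day 6 the numbers in the row and in exon 1 were close, and in MEF, iPSC and the NSC exon 1 held more. A read that is spliced across intron 1 spans this row, and how such reads were counted is not given in the sources used here. The 4 wholly untranslated rows of Pou5f1 lie in intron 1 too and held nearly the same number of reads although they are 29 to 588 bases long: 1589 to 1592 on day 6, 11180 to 11525 in iPSC and 4733 to 4750 in ESC. For these genes a contrast of wholly coding with wholly untranslated rows therefore rests on intron rows alone, and Klf4 and Sox2 have no such row. The contrast was computed as planned, at a log2 difference from MEF to day 6 of 1.22 for Pou5f1 and 0.03 for Myc, neither of them past 4-fold, and is not read further.

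Another contrast divided rows by whether more or less than 50% of their bases are coding. The intron row of Myc stays among its untranslated rows here, so the Myc values still rest in part on it, while Klf4 has no such row. From MEF to day 6 the log2 contrast of coding against untranslated rows was 2.22 for Klf4 and 0.92 for Myc. In that comparison 2.25% of genes were 4-fold higher and 1.37% lower. Against iPSC it was 1.37 and 1.55 (1.64% of genes higher, 0.841% lower), and for Klf4 against ESC 3.29 (1.84% higher, 1.85% lower). Klf4 was thus past 4-fold in 2 of 3 comparisons of this kind. The same contrast was 1.92 for iPSC over ESC and 1.07 for MEF over ESC. The ESC library was thus itself low in coding rows of Klf4, and the ESC value does not describe the day 6 cells alone. In Tomato-positive OSKM NSC against brain NSC it was 0.69 for Klf4 and -0.41 for Myc (0.238% of genes 4-fold higher, 0.387% lower), and in Tomato-negative cells 0.39 and -0.12 (0.0498% and 0.239%).

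Between day 6 and the pluripotent lines, Pou5f1 differed less from exon to exon than Klf4. Exon 1 was at 425 RPKM on day 6, 1637 in iPSC and 639 in ESC. Exon 2 was at 795, 3683 and 2242, exon 3 at 1883, 3893 and 2782, exon 4 at 3849, 4445 and 3748, and exon 5 at 801, 2054 and 1710 in the same 3 libraries. Day 6 was thus close to ESC in exon 4, at a ratio of 1.03 (1.01 to 1.04), and was below it in exons 1, 2, 3 and 5, at 0.665 (0.648 to 0.684), 0.355 (0.343 to 0.367), 0.677 (0.660 to 0.694) and 0.469 (0.460 to 0.477). Exon 4 took 39.6% (39.3 to 40.0) of the reads of the 5 exons on day 6, 20.6% (20.4 to 20.8) in iPSC and 25.2% (24.9 to 25.5) in ESC. Against the other coding rows of the gene, exon 5, which holds the stop codon and the 3′ untranslated end, was lower on day 6, at a log2 difference of -0.60 relative to iPSC and -0.76 relative to ESC. For exon 1 these differences were -1.19 and -0.26. None of these passed 4-fold. From MEF to day 6 exon 1 was at -1.92 and exon 5 at -0.89, also inside 4-fold. Against Tomato-positive and Tomato-negative OSKM NSC, exon 1 was past 4-fold lower on day 6, at -3.35 and -3.37. Those libraries held 70 and 73 reads in exon 1. The untranslated bases of exons 1 and 5 share their rows with coding bases and could not be read alone.

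The last 5 bases of Pou5f1 exon 4 (chr17:35510135-35510139) are missing from a shorter form of that exon, and reads in the longer but not the shorter row numbered 39 on day 6, 581 in iPSC and 326 in ESC, out of 28153, 40991 and 24431 in the exon. In MEF, exons 1 to 5 held 29, 5, 8, 24 and 28 reads. The NSC libraries held 70, 8, 11, 15 and 24 (Tomato-positive), 73, 5, 12, 18 and 11 (Tomato-negative) and 95, 0, 5, 7 and 3 (brain). Exon 1 gave 86.4% (78.5 to 92.2) of the Pou5f1 reads in brain NSC, 54.7% (45.7 to 63.5) and 61.3% (52.0 to 70.1) in the OSKM NSC and 30.9% (21.7 to 41.2) in MEF, against 12.8% on day 6, 22.2% in iPSC and 12.6% in ESC. The low Pou5f1 value of brain NSC thus came mainly from 1 exon. In exon 5, Tomato-positive OSKM NSC were above Tomato-negative ones at a ratio of 4.82 (2.27 to 10.9), on 24 and 11 reads.

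Sox2, read as a single row, held 35881 reads in iPSC, 18460 in ESC, 13321 in brain NSC, 12363 and 5402 in the Tomato-negative and Tomato-positive OSKM NSC, 7393 in the day 6 cells and 323 in MEF. Its ratio of day 6 to MEF was 22.4 (20.0 to 25.1), to iPSC 0.260 (0.253 to 0.266) and to ESC 0.357 (0.347 to 0.367). It was lower in Tomato-positive and Tomato-negative OSKM NSC than in brain NSC, at 0.576 (0.558 to 0.595) and 0.597 (0.582 to 0.611). The deposited Sox2 values gave whole reads at a length of 2457 bases, and those of Pou5f1 exon 5 at 489 instead of the annotated 485, so the file was made with longer models of these exons.

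In the OSKM NSC, the exons of Klf4 were each below those of brain NSC and the exons of Myc each above. Klf4 exons 1 to 5 were at ratios of 0.394, 0.447, 0.662, 0.469 and 0.352 in Tomato-positive cells and 0.682, 0.606, 0.815, 0.636 and 0.528 in Tomato-negative cells. Intervals of the RPKM, taken for each library by itself, overlapped those of brain NSC in exons 2 and 3 of both OSKM NSC libraries and in exon 1 of the Tomato-negative one. Such an overlap does not settle whether a ratio is clear of counting error. Exon 3, for example, was at 4.01 (3.43 to 4.67) in Tomato-negative cells and 4.93 (4.12 to 5.85) in brain NSC. Myc exons 1 to 3 were at 2.77, 2.15 and 2.02 in Tomato-positive cells and 1.74, 1.64 and 1.58 in Tomato-negative cells. The exons of Pou5f1 differed from each other on few reads: exon 1 was at 1.05 (0.758 to 1.44) and 0.494 (0.359 to 0.677) in Tomato-positive and Tomato-negative cells, and exon 5 at 11.4 (3.45 to 59.0) and 2.36 (0.623 to 13.2), against 3 reads in brain NSC. For Klf4 exon 1 and for the Myc tail, the shares of reads given above had overlapping intervals in the 3 NSC libraries, at depths of 19 (Tomato-positive), 42 (Tomato-negative) and 27 (brain) megareads. Beside the higher Myc of the Tomato-positive library stand its fibroblast markers, given above, whose part was not tested.

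Genes around the factors were read from lists. Of 9 tested genes with known Oct4-Sox2 enhancers, 8 were at least 2-fold higher on day 6 than in MEF (22.4% of all genes) and none lower (31.2%), with a median log2 difference of 4.01 beside -0.13 over all genes. Among them Nanog had 67.2 RPKM on day 6 against 0.795 in MEF, Tdgf1, a Nodal co-receptor, 51.0 against 0.196, and Fgf4, a growth factor of the inner cell mass, 36.5 against 0.0587. The day 6 cells were sorted through the Nanog reporter, so the count of Nanog is not independent of how they were chosen. Set against both pluripotent lines, 7 of 10 were 2-fold lower on day 6 (19.1% of all genes) and none higher (9.2%). Nanog reached 772 RPKM in iPSC and 765 in ESC. In both OSKM NSC libraries against brain NSC, 1 of 3 tested genes was 2-fold higher (8.16% of all genes) and none lower (5.08%). This was Nanog, which had 0.154 RPKM in brain NSC against 5.27 (Tomato-positive) and 1.37 (Tomato-negative). The Tomato labels of these cells rest on the same reporter.

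Of 10 growth genes bound by Myc, 6 were 2-fold higher on day 6 than in MEF and 1 lower (22.4% and 31.2% of all genes), with a median log2 difference of 2.11. Odc1, the first enzyme of polyamine synthesis, went from 59.5 to 565 RPKM, and Ncl, nucleolin, from 112 to 817, while Ldha, lactate dehydrogenase, was at 1458 and 544. Between day 6 and both pluripotent lines, 1 of the 10 (Odc1) was higher and none lower, against 9.2% and 19.1% of all genes. Of 8 partners and antagonists of Myc, 2 were higher on day 6 than in MEF and 1 lower, against 22.4% and 31.2% of all genes. Their median log2 difference was 0.48 beside -0.13 over all genes. Those past 2-fold were the antagonist Mxi1, at 64.0 RPKM on day 6 against 20.7, Mga, at 33.0 against 11.8, and Mxd4, at 12.4 against 50.9. Max, the obligate partner, was at 74.4 against 55.1 and did not pass 2-fold. In OSKM NSC, Mxi1 (14.0 or less against 41.0) and Mxd1 (3.75 and 4.64 against 15.2), both Max-binding repressors, were 2-fold lower than in brain NSC, 2 of 8 with none higher (5.08% and 8.16% of all genes). Odc1 was the 1 growth gene of 10 that was 2-fold higher in both OSKM NSC libraries, at 233 and 155 RPKM against 53.9, a share near that of all genes.

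Among 12 relatives of the factors, 8 were tested from MEF to day 6. Of these, 3 were 2-fold higher and 2 lower, against 22.4% and 31.2% of all genes, with a median of 0.10. Sox15 went from 0.568 to 32.1 RPKM and Klf2 from 9.02 to 0.753. Against both pluripotent lines, 3 of 7 tested relatives were 2-fold lower on day 6 (19.1% of all genes) and none higher (9.2%). These were Klf2, Klf5 and Mycn, at 109, 100.4 and 51.9 RPKM in iPSC, 51.6, 56.7 and 22.5 in ESC, and 0.753, 11.5 and 1.34 on day 6. The POU factors of the nervous system, Pou3f2, Pou3f3 and Pou3f4, were at 8.74 to 57.9 RPKM in the 3 NSC libraries and below this range in the other 4. Sox1, an early neural factor, was the 1 relative of 10 tested that was 2-fold higher in both OSKM NSC libraries than in brain NSC, at 8.15 and 8.02 against 2.29, a share near the 8.16% of all genes. Both epithelial genes bound by Klf4 were 2-fold higher on day 6 than in MEF, as were 22.4% of all genes: Cdh1, E-cadherin, at 275 against 4.46, and Krt19 at 261 against 36.6.

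The genes most like each factor over the 7 libraries were ranked by Pearson's r of log2(RPKM + 1) among 12443 genes. For Pou5f1 these were Gpa33 (r = 0.9996), Sox15 (0.997) and Sall4 (0.997). For Sox2 they were Ppp4r3a (0.991), Kbtbd8 (0.985) and Cenpv (0.979), for Klf4 Zbtb38 (0.992), Zc3h10 (0.984) and Gpbp1l1 (0.975), and for Myc Kdm2a (0.970), Cyp21a1 (0.957) and Crmp1 (0.957). These values describe 7 points that each share a library with its depth and strain. The amplitudes differed widely from those of the factors: Kdm2a, for example, ranged from 24.5 RPKM in ESC to 46.9 on day 6, and Gpa33 from 0 in brain NSC to 90.7 in iPSC.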

How the data were processed

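Poly(A) RNA of 7 libraries, 1 per population, was measured with a TruSeq v2 kit, per the labels' protocols. The deposited values are RPKM per Ensembl exon, made by the authors. The submitters' processing notes list mm10, bedtools, TopHat2 2.0.10, Bowtie and CASAVA 1.8.2, with no role for each. Of 279252 rows, 270168 were matched by exon ID to GENCODE M21 (96.7%) and 9084 were left out. Multiplying RPKM by exon length gave whole reads at 45, 46, 19, 42, 27, 58 and 41 megareads of depth (MEF, day 6, Tomato-positive, Tomato-negative and brain NSC, iPSC, ESC). At these depths 96.3% to 96.5% of values under 5000 reads were whole within 0.01 reads plus 1e-05 of the value. Reads of a stretch are those in the longer but not the shorter of 2 rows that share an end.

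Gene levels are length-weighted means of all exon rows of a gene, overlapping rows and rows inside introns included. They were compared as log2((a + 1)/(b + 1)) where 2 RPKM was reached in either library. Row and class contrasts used a pseudocount of 0.1 RPKM, and the class of first rows held rows of any length. Tails needed 100 bases, 20 reads in 1 library and 100 reads in the shortest row in both. With 1 library per population only counts past 4-fold (lists: 2-fold) are given, and list members had to pass in each pair. Intervals are exact (Clopper-Pearson or conditional) at 95%. The genes named are the 4 factors, the 3 most like each of them (at least 10 RPKM in some library) and the most changed members of each list. Members and lists were chosen with earlier results of these data known, and the contrasts of Klf4 exon 1 and of the Myc tail were added after seeing the values. Reads of overlapping genes could not be separated by strand with this kit. On simulated counts drawn from MEF, 51% of 100 genes changed 4-fold in their coding rows and 100% of 100 changed 16-fold were called past 4-fold for day 6 against MEF, with 0.287% of 3489 unchanged genes, among 3689 genes. These calls are for the contrast of wholly coding with wholly untranslated rows. Both libraries were drawn from the MEF values, so they differed by counting error and the set changes only. The Myc tail was not simulated. All 7 of 7 simulated depths were recovered. Python 3.11.15, numpy 2.4.6, pandas 2.3.3, scipy 1.17.1 and matplotlib 3.10.9 were used.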

Additional observations from a re-analysis of the deposited data

How the results depend on the processing

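Gene-level counts past 4-fold depended on the pseudocount. At 4 RPKM they were 755 higher and 1556 lower for day 6 against MEF (1330 and 2607 at 1 RPKM), 536 and 781 against iPSC (1022 and 1537), 382 and 1053 against ESC (740 and 2028), 466 and 220 for Tomato-positive (1083 and 461) and 157 and 103 for Tomato-negative OSKM NSC against brain NSC (464 and 234). For the last comparison a pseudocount of 0.25 gave 697 and 360, and a floor of 8 RPKM gave 307 higher. In the contrast of wholly coding with wholly untranslated rows, a floor of 8 RPKM gave 107 genes higher and 260 lower from MEF to day 6 (220 and 473 at 2 RPKM), 137 and 139 against iPSC (268 and 250), and 95 and 390 against ESC (172 and 680). A floor of 0.4 RPKM gave 346, 411 and 294 higher. A pseudocount of 1 RPKM gave 130 higher and 308 lower from MEF, 157 higher against iPSC and 105 higher against ESC, and rows of at least 100 bases gave 177 and 99 higher in the latter comparisons. For single genes in that contrast, the highest row of each class gave Myc 0.88 (MEF) and 0.71 (iPSC), and Pou5f1 2.29 (iPSC) and 1.797 (ESC). Dividing rows at 50% coding gave Myc 0.92, 1.55 and 0.36 and Pou5f1 1.37 and 1.13 in the same comparisons, and for Myc against ESC a pseudocount of 1 RPKM gave 0.68, where the main value of -1.71 turned sign under both. The intron rows of Myc and Pou5f1 stay among the untranslated rows in each of these settings. Klf4 exon 1 stayed at least 4-fold lower on day 6 under each alternative: a pseudocount of 1 RPKM gave -4.64, -4.16 and -5.30 (MEF, iPSC, ESC), and the highest coding row gave -4.79 against ESC. At the gene level the highest exon row turned Klf4 from -0.78 to 0.12 for day 6 against iPSC, and wholly coding rows turned Pou5f1 from -0.14 to 0.57 for Tomato-negative OSKM NSC against brain NSC. Wholly coding rows also moved Klf4 from 0.14 to 1.63 for day 6 against ESC. Of the alternative gene-level values of the factors, 62 moved by more than counting error, 2 turned sign and 51 stayed the same. The cause was not tested. No paired analysis was possible because each population has 1 library.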
